A study of Mus musculus with 2 samples.

Results

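DNase-seq maps accessible chromatin by sequencing the ends that DNase I leaves in nuclei. In the thymus of aged female mice it found 3046 accessible regions in replicate 1 and 3043 in replicate 2 that lay outside protein-coding genes and far from their start sites. These far intergenic peaks are the subject here. A peak belonged to them if it overlapped a peak of the other library by at least 1 bp and its centre lay outside every protein-coding gene, over 1 kb from the start site of any gene, coding or not, and over 50 kb from the nearest protein-coding start site, all by the basic set of GENCODE M21. They were drawn from 49224 and 48581 autosomal peaks of the main lists, of which they made up 6.19% in replicate 1 and 6.26% in replicate 2 (mean 6.23% ± 0.0535, SD, n = 2 libraries). By location alone 4194 and 4054 peaks met the distances. The overlap rule kept 72.6% of them in replicate 1 and 75.1% in replicate 2, against 79.5% and 80.5% of all autosomal peaks. Of the peaks that met the distances, 42.5% and 41.0% lay in the weakest of 4 equal groups of all autosomal peaks by deposited signal. In replicate 1 the rule kept 47.1% of those in the weakest group and 99.4% in the strongest. In replicate 2 it kept 56.2% and 100%.

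The 2 libraries form 1 group, thymus tissue of female B6CASTF1/J mice, an F1 hybrid as the name gives it, at an age of 18 to 20 months. The labels name no treatment or mutation, and no younger, male or other tissue was compared here. The 2 libraries share a donor record but not a biosample record. Whether they come from different animals is not stated, and their spread may be only technical. Because a peak must be found in both libraries to count, numbers of far peaks agree between libraries by construction. The SD of such a number therefore says little about biological error. Peaks are not replicates, so no p-value is attached to any difference between classes of peaks. In whole tissue, a signal from more open cells and one from more cuts per open cell cannot be told apart. Of the markers fixed for the T cells that make up most of the thymus, 9 of 10 had a promoter peak in both libraries, Cd4 being the exception. The same was found for 1 of 3 thymic epithelial markers, for Epcam but not for the defining genes Foxn1 and Psmb11, and for 0 of 4 B cell, 0 of 4 myeloid, 0 of 3 fibroblast, 0 of 3 adipocyte and 0 of 3 hepatocyte markers. A promoter peak in replicate 2 alone was found for Cd4 and 1 B cell marker. In replicate 1 alone it was found for 1 myeloid and 1 fibroblast marker.

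Accessible sites far from genes include enhancers, which bind transcription factors and act on promoters over long distances, and sites of CTCF, a protein that holds the bases of chromatin loops and acts as an insulator. Genes that control development often have wide gene-free intervals beside them, known as gene deserts, in which such elements lie. In developing T cells the factors known to act at enhancers include RUNX and ETS proteins, the E proteins that bind E-boxes, TCF7 and LEF1, GATA3 and Ikaros.

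The strongest far peak of each of 4 deserts is shown here as examples of what these regions hold, read from the GRCm38 plus strand. Capitals mark bases that lay in footprints, short stretches protected from DNase I, in both libraries.
Desert between Gm11361 and Sox4, chr13:28512621-28512840: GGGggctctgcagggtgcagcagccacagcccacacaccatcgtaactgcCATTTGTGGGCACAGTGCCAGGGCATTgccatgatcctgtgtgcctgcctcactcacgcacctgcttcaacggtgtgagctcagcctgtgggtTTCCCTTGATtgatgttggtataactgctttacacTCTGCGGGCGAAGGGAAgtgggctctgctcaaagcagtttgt
Desert between Ets2 and Psmg1, chr16:95869521-95869800: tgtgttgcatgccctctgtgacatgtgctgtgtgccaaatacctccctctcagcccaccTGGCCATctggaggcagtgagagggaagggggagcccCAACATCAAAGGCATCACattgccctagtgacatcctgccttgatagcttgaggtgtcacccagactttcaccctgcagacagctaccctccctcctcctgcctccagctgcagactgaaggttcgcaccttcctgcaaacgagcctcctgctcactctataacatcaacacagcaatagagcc
Desert between Vrk1 and 3110018I06Rik, chr12:107086341-107086540: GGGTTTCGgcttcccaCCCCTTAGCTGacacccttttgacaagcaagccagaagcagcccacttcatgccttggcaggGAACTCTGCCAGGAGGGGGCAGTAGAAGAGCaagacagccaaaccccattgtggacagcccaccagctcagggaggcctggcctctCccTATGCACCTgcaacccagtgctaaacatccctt
Desert between Uaca and Tle3, chr9:61054461-61054700: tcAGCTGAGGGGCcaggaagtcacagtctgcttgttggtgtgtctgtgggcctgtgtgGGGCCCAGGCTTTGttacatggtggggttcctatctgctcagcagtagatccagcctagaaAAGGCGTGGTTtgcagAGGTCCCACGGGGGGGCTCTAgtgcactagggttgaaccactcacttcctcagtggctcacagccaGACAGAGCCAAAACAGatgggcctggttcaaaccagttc

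In the region beside Sox4, 57 of 220 bases lay in footprints of both libraries, and none of these stretches held one of the consensus sequences searched. In the region between Ets2 and Psmg1 it was 25 of 280 bases, which covered a TCF7 and LEF1 consensus (CTTTGAT, here on the minus strand). In the region between Vrk1 and 3110018I06Rik, 60 of 200 bases were covered, with all but 1 base of an E-box CAGGTG and 1 match to a loosened CTCF consensus but none to the stricter one used for counts. In the region between Uaca and Tle3, 73 of 240 bases were covered, among them all but the first base of an E-box CAGCTG. These regions were picked for their signal. A match describes letters in the window and does not show that a factor was bound.

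Far peaks were sparse. The stretches of the assembled autosomes that meet the distances come to 911.1 Mb, 38.03% of the sequence, and held 3.34 far peaks per Mb in each library. Intergenic sequence within 50 kb of a coding start site held 15.1 shared peaks per Mb in each library. The density of far peaks fell with distance over all 5 intervals examined. It was 8.58 and 8.57 per Mb in replicates 1 and 2 between 50 and 100 kb from the nearest coding start site, and 4.49 in both between 100 and 200 kb. Beyond that it was 1.78 in both libraries up to 500 kb, 0.385 up to 1000 kb and 0.129 farther away, the last from 10 peaks in each library. The median distance was 99.2 kb in replicate 1 and 99.3 kb in replicate 2. The far peak nearest the limit lay 50067 bp from a start site in replicate 1 (signal 0.546) and 50001 bp in replicate 2 (0.620). The nearest excluded intergenic peaks lay at 49973 bp (1.23) and 49959 bp (2.50).

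**Figure D1:**
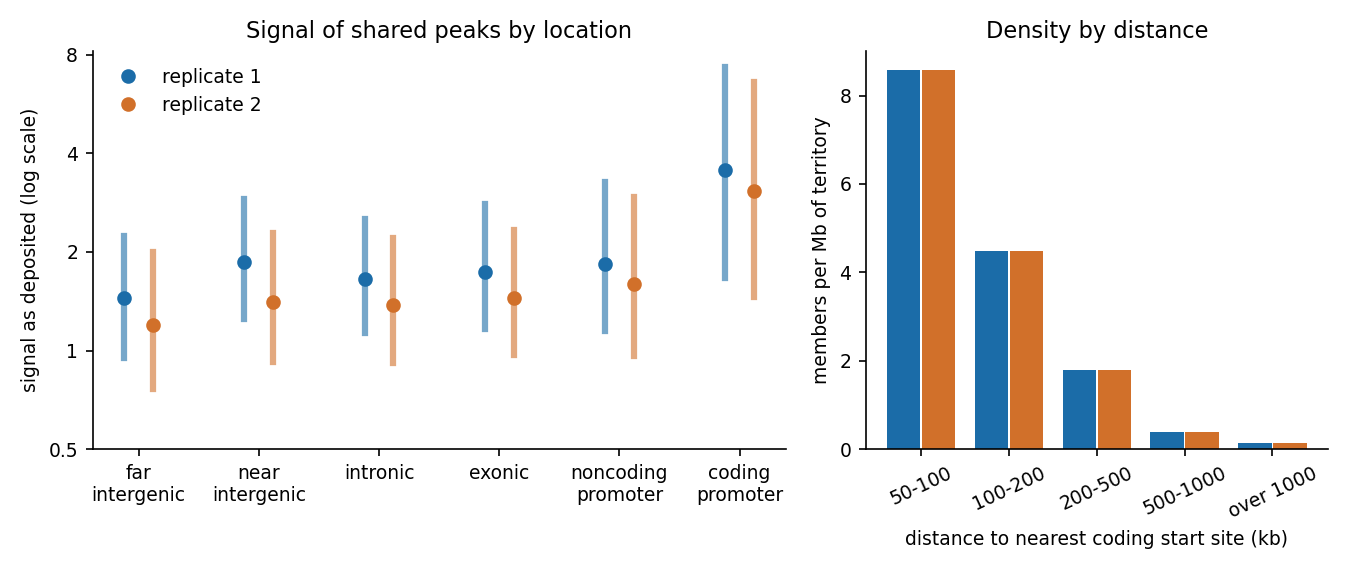
Left, the signal of shared peaks by location (x axis) on a log scale in the authors' deposited units (y axis), with points at the median and bars from the lower to the upper quartile for each library. Right, far intergenic peaks per Mb of territory (y axis) by distance to the nearest coding start site (x axis). Far peaks have the lowest median signal of the 6 locations, 1.45 in replicate 1 and 1.19 in replicate 2, and their density falls to 0.129 per Mb beyond 1000 kb.

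Many far peaks lay near one another. Another far peak lay within 10 kb for 46.1% of them in replicate 1 and for 46.0% in replicate 2, and the median distance to the nearest other was 13.2 and 13.3 kb. Of 3462 deserts with any far territory, each the interval between neighbouring protein-coding genes, 1103 (31.9%) held a far peak in both libraries, and 518 of these held exactly 1 in each. Only 51 deserts held at least 10 in both. Of the far peaks, 50% lay in 190 deserts. The 10 deserts with most held 215 in replicate 1 (7.06%) and 212 in replicate 2 (6.97%), in 0.901% of the far territory.

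The desert with most far peaks lay between Ets2, a transcription factor of the ETS family, and Psmg1, which encodes a proteasome assembly chaperone, on chromosome 16 from 95721052 to 95979932. It held 26 far peaks in replicate 1 and 25 in replicate 2 in 175.1 kb of far territory, 14.6 ± 0.404 per 100 kb (SD, n = 2), the highest density of the 138 deserts with at least 100 kb of far territory and 5 far peaks in each library. This number and density count every listed peak. Fewer far peaks of this desert paired 1 to 1 between libraries than in the 2 deserts described next. Its first place by number therefore does not hold when pairs are counted. The strongest far peak of this desert, shown above, had signals of 6.85 in replicate 1 and 10.3 in replicate 2. Signals are in the authors' units, whose scale is not stated.

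The interval from Gm11361 to Sox4 on chromosome 13, 28258135 to 28948918, held 25 far peaks in each library. Sox4 is a transcription factor of the HMG box family that acts in lymphocyte development. Its strongest far peak, 441.0 kb downstream of Sox4 and shown above, had signals of 11.6 and 13.4 and was the fourth strongest far peak when 1 was taken per desert. The next in this interval lay 195.8 kb downstream of Sox4 with 6.67 and 6.62. The noncoding gene 2610307P16Rik, which spans 425.6 kb of this desert, contained 19 far peaks in each library.

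The third desert, from Vrk1, a nuclear kinase gene, to 3110018I06Rik on chromosome 12, 106077427 to 107488631, also held 25 far peaks in each library. Bcl11b, a transcription factor required for commitment to the T lineage, lies beyond 3110018I06Rik, and in the mouse an enhancer region far downstream of Bcl11b is known from T cell progenitors. Within 2 Mb of the Bcl11b start site 39 pairs of far peaks were found, 36 of them downstream and 3 upstream. The strongest lay 917.2 kb downstream with signals of 8.47 and 7.46. Between 802.5 and 956.3 kb downstream lay 13 of the 36 pairs, with signals from 1.83 to 8.47 in replicate 1 and from 1.45 to 7.46 in replicate 2.

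Among the other deserts of the first 12, Foxo1 to Cog6 on chromosome 3 held 25 and 24 far peaks in replicates 1 and 2. Foxo1 is a transcription factor of lymphocyte homeostasis, and Cog6 is part of a Golgi complex. The far peak there that was strongest by mean signal had 3.83 and 4.66. Satb1 to Kcnh8 on chromosome 17 held 20 in each library, with signals up to 3.87 and 4.72. Satb1 encodes a chromatin organiser of thymocytes and Kcnh8 a potassium channel. Id2 to Rnf144a on chromosome 12 held 20 and 19 on the upstream side of Id2, an inhibitor of E proteins, with the strongest 169.8 kb from its start site at 4.47 and 4.32. On chromosome 9 the deserts on both sides of Tle3, a corepressor gene, were among the 12, with 22 far peaks in each library on the side of Uaca and 15 in each on the side of the ribosomal gene Rplp1. Cd83 to Jarid2 on chromosome 13 held 16 in each library. Cd83 encodes a surface protein of immune cells and Jarid2 a cofactor of Polycomb repression.

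Sall3 to Galr1 on chromosome 18 was the only one of the 12 without a promoter peak in both libraries at either flanking gene, and it held 20 far peaks in each library. Sall3 is a zinc finger transcription factor gene and Galr1 encodes a galanin receptor. Of these 20, 4 had a CTCF consensus match, against 0 or 1 in each of the 11 others.

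Myc to Gsdmc on chromosome 15 held 16 far peaks in each library, spread from 107.4 to 1737 kb downstream of Myc, a growth regulator gene that is known to have distant downstream enhancers in blood cells. The strongest by mean signal lay 184.4 kb downstream with 2.80 in replicate 1 and 3.46 in replicate 2. The one 1667 kb downstream had 3.40 and 2.02, so that the 2 libraries differ in which is highest. Between 472.9 and 1355 kb no far peak was found. The noncoding gene Pvt1 contained 7 of the 16 in each library.

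The last of the 12, Olfr1507 to Dad1 on chromosome 14, holds 201 antigen receptor segments of the Tcra and Tcrd locus. The segments are not counted as protein-coding genes in the annotation, so 16 peaks there in each library met the rule. The strongest by mean signal had 3.67 in replicate 1 and 3.69 in replicate 2 and was 100% repeat-masked, while the highest in replicate 1 was another far peak at 3.88. All deserts with antigen receptor segments together held 39 far peaks in each library (1.28%), including 15 in each in the immunoglobulin heavy chain interval from Adam6a to Zfp386.

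**Figure D2:**
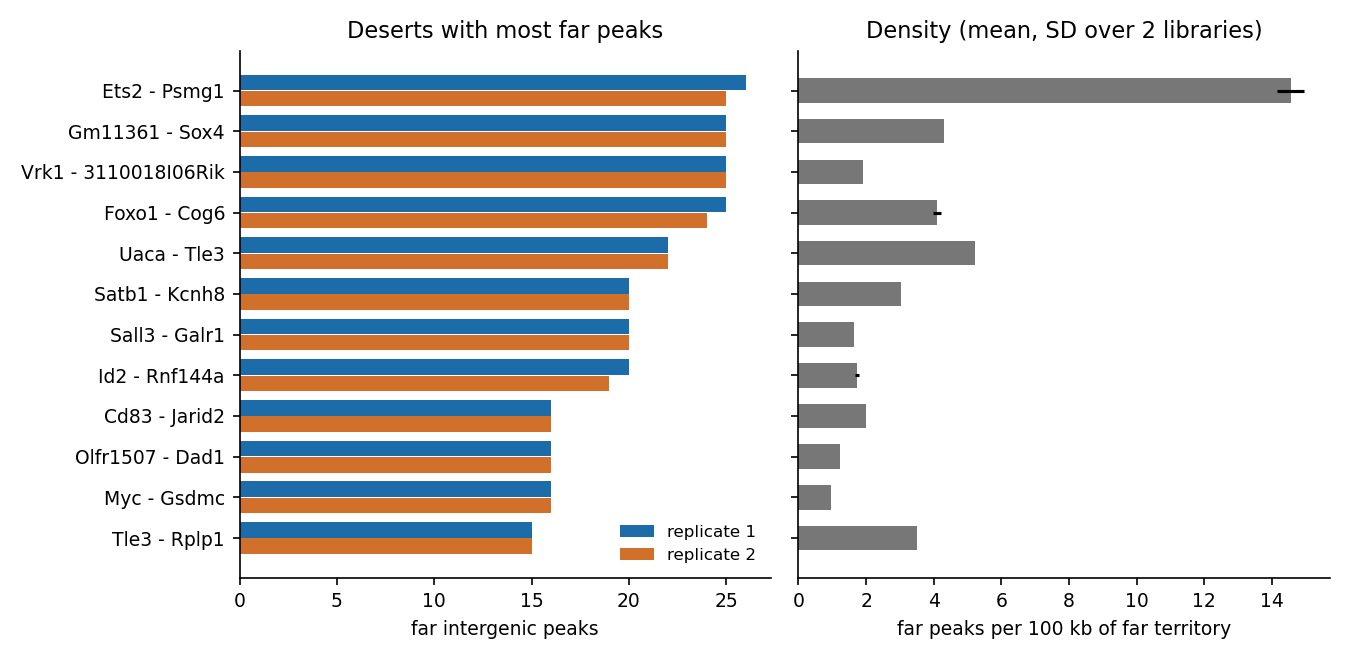
Left, the number of far intergenic peaks (x axis) in each library in the 12 deserts with most of them, named by their flanking genes (y axis). Right, far peaks per 100 kb of far territory, as the mean of both libraries with the SD. Of the 12, Ets2 to Psmg1 leads in number, with 26 and 25, and in density, with 14.6 per 100 kb, while Myc to Gsdmc has 16 in each library at 0.952 per 100 kb.

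**Figure D3:**
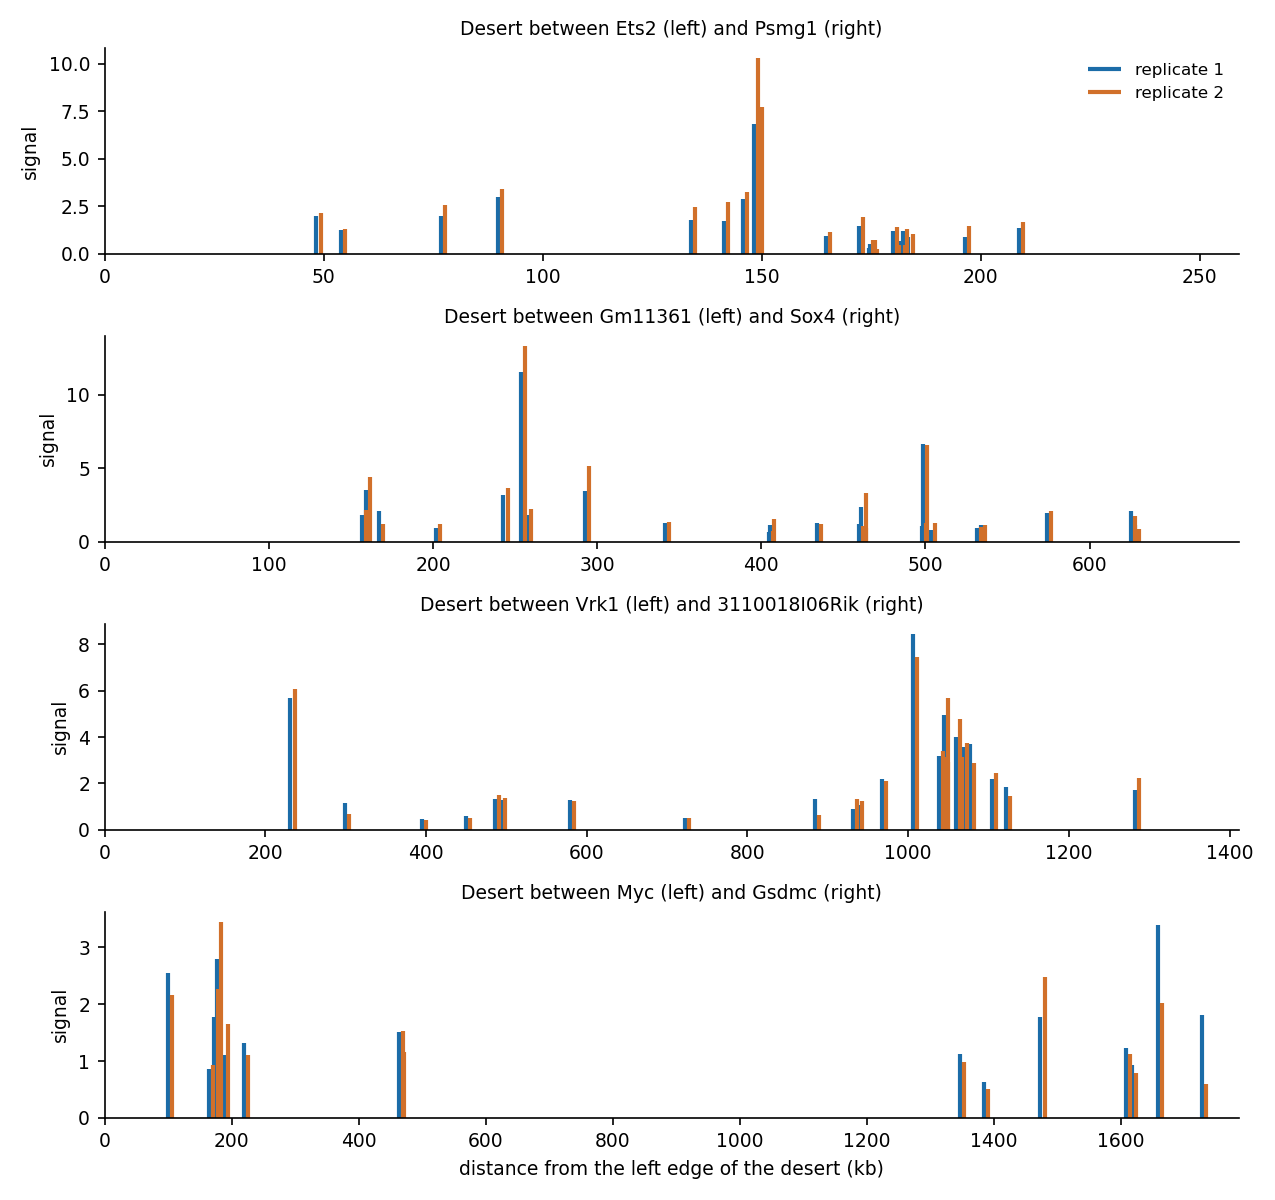
Signal of each 1-to-1 pair of far intergenic peaks (y axis, the authors' deposited units, a line per library) along 4 deserts, by distance from the left edge of the desert in kb (x axis). Peaks form groups, such as that left of 3110018I06Rik around the highest line of 8.47 in replicate 1, and the strongest between Gm11361 and Sox4 reaches 11.6 and 13.4.

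By density, among deserts with at least 100 kb of far territory and 5 far peaks in each library, the one after Ets2 to Psmg1 was Cstad to 1700001O22Rik on chromosome 2, with 13 far peaks in each library and 12.8 per 100 kb. Klf13 to Trpm1 on chromosome 7 had 9 in each library and 8.26 per 100 kb. Klf13 encodes a zinc finger transcription factor and Trpm1 an ion channel. Zfp217 to Bcas1 on chromosome 2, beside a zinc finger gene, had 12 in each library and 7.98 per 100 kb, and Arf6 to Vcpkmt on chromosome 12, beside the gene of a small GTPase, had 8 in each and 7.51 per 100 kb. Many large deserts had none. Of 219 deserts with at least 1 Mb of far territory, 139 held no far peak in either library. The widest of these lay between Tenm3 and Aga on chromosome 8, with 4543 kb of far territory, followed by Celf4 to Pik3c3, Olfm4 to Pcdh17, Slc39a10 to Tmeff2 and Dsel to Cntnap5a.

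Far peaks were denser where the flanking genes were open, that is, had a promoter peak in both libraries. Deserts with both flanking genes open held 7.73 far peaks per Mb of far territory in each library. With 1 open the densities were 2.83 and 2.83 in replicates 1 and 2, and with none 1.04 and 1.03. The 1016 deserts with both open made up 21.1% of the far territory and held 48.7% of the far peaks in each library. They had 191.8 Mb of far territory, against 457.0 Mb in 1512 deserts with 1 open and 262.3 Mb in 934 with none. Deserts with both open were thus narrower on average. The part of width and of distance in these densities was not tested. The nearest protein-coding gene was open for 74.0% of far peaks in both libraries, against 69.2% of near intergenic peaks and 77.3% of intronic peaks. Among all autosomal peaks, shared or not and promoter peaks included, the share was 82.0% in replicate 1 and 83.9% in replicate 2. Among the shared ones it was 85.0% in both libraries. Some of the 20807 autosomal protein-coding genes share a name. Of all their distinct names 11348 (54.6%) were open.

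A list of 72 T lineage regulators was compared with this map, all of which were found in the annotation. Of the 43 beside far territory, 35 (81.4%) had a far peak in both libraries in an adjoining desert. Of all 5382 protein-coding genes beside far territory it was 1990 (37.0%). The median number of far peaks in adjoining deserts was 4 for the list and 0 for all such genes. The list was chosen with earlier results of these data known, so these figures describe it and are no test. Of the 43, all but Lmo2 were open, whereas the 5382 were not limited to open genes. The part of open promoters and of the width of the territory in this difference was not tested. The highest counts were at Foxo1 (28 in replicate 1 and 27 in replicate 2), Sox4 (27 and 27) and Satb1 (25 and 25). Then came Btg1, an antiproliferative gene (20 and 20), Id2 (20 and 19), Myc (17 and 17) and Runx1, the gene of a RUNX factor (16 and 16). Lef1 had 14 and 15, Ets1, an ETS factor gene of lymphocytes, 14 and 14, and Zfp36l2, which encodes a messenger RNA decay factor, 14 and 14.

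Gata3, the T cell member of the GATA factors, had 12 far peaks in adjoining deserts in each library, all nearest to Gata3 itself. In the mouse a T cell enhancer of Gata3 is known far downstream. The strongest far peak lay 284.4 kb downstream of its start site with 4.67 and 5.45, followed by one at 283.0 kb with 3.15 and 4.34. Bcl11b also had 12 in each library in the deserts that adjoin it, since most of those described above lie beyond 3110018I06Rik. Lower on the list were Tgfbr2 (11 and 12), Tox (11 and 11), Cxcr4 (10 and 10), Bcl6 (10 and 10), Runx3 (7 and 7), Mycn (7 and 7), Prkcq (6 and 6), S1pr1 (5 and 6) and Ikzf2 (5 and 5). The other 14, with 1 to 4 far peaks in each library, were Bach2, Thy1, Foxp1, Myb, Bcl2, Tcf12, Zfp36l1, Lmo2, Cd28, Arpp21, Nr4a3, Ctla4, Rora and Egr2. Lmo2 was the only one of the 35 whose own promoter had no peak in both libraries. The 8 beside far territory but without a far peak were Nfil3, Hhex, Themis, Notch3, Tox2, Gfi1, St6gal1 and Cdk6. The far territory next to these ran from 12.5 to 269.8 kb. The other listed genes, among them Cd3e, Cd4, Cd8a, Lck and Rag1, adjoin no far territory, so no far peak could be counted for them.

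Of far peaks, 18.5% in both libraries lay inside a noncoding gene away from its start sites, against 10.9% of near intergenic peaks and 10.6% and 10.7% of all shared autosomal peaks. Long intergenic noncoding RNA genes hosted 454 far peaks in replicate 1 and 457 in replicate 2. The host with most was 1600002D24Rik, between Ets2 and Psmg1, which spans 172.5 kb and contained 25 in replicate 1 and 24 in replicate 2. After 2610307P16Rik beside Sox4 came Gm14005 on chromosome 2 with 11 in each library.

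The far peaks ranked 2 and 3 by mean signal are printed here, both rich in G and C. Capitals again mark bases in footprints of both libraries.
Desert between Wnt7b and Ppara, chr15:85634481-85634720: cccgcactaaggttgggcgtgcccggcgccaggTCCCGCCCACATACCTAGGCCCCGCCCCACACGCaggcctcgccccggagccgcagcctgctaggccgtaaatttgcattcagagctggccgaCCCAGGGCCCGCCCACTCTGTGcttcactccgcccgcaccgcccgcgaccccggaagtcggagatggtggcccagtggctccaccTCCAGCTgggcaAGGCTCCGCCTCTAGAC
Desert between Cstad and 1700001O22Rik, chr2:30658501-30658740: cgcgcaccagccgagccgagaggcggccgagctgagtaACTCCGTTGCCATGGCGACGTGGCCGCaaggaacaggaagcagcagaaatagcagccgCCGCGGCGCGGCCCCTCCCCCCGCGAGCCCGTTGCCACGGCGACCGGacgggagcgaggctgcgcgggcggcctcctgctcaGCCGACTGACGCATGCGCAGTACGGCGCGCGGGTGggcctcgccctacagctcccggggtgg

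The region between Wnt7b, a signalling ligand gene, and Ppara, a nuclear receptor gene, had signals of 18.5 in replicate 1 and 18.4 in replicate 2. It lay 52.1 kb from the nearest coding start site. Of its bases 70.8% were G or C, and its ratio of observed to expected CpG dinucleotides was 0.727. Its footprints held a match for SP and KLF factors (GGGGCGG, on the minus strand here) and all but the last base of an E-box CAGCTG. The region beside Cstad had 17.2 and 15.4, with 74.2% G or C and a CpG ratio of 1.06. Over all far peaks the median CpG ratio was 0.280 in replicate 1 and 0.272 in replicate 2, against 0.796 and 0.789 for promoter peaks and 0.302 and 0.308 for near intergenic peaks.

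Start sites of other annotations lay at some of them. Of the 12 strongest far peaks, taken 1 per desert, 4 were within 1 kb of a transcript start in RefSeq. The Wnt7b region lay 0.005 kb from a start of the noncoding gene D130051D11Rik, and that of Mn1 0.003 kb from one of Gm36223. That of Rxfp2 lay 0.037 kb from one of Fry, and the comprehensive GENCODE set also has a start of Fry at 0.064 kb. That of 2010111I01Rik lay 0.032 kb from a start listed under Aopep in RefSeq and, at the same distance, under 2010111I01Rik in the comprehensive set. Fry and 2010111I01Rik are protein-coding genes, so these far peaks lie at starts of coding genes that the basic set lacks. Signals in replicates 1 and 2 were 12.3 and 11.1 for the region of Rxfp2, 11.7 and 10.7 for that of Mn1, and 12.9 and 9.38 for that of 2010111I01Rik. Over all far peaks, 197 in replicate 1 (6.47%) and 196 in replicate 2 (6.44%) lay within 1 kb of a start in RefSeq or in the comprehensive GENCODE set. Those peaks had median signals of 1.63 and 1.31, against 1.44 and 1.19 for the far peaks at neither.

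The strongest far peak of all lay in the desert between Gm8797 and 1700008P02Rik, chr3:5860361-5860530, with 28.1 in replicate 1 and 15.7 in replicate 2. Each of the 139 stretches of 32 bases that can be read from it was found elsewhere in the assembly. Up to 14 copies were found, a count that leaves out any copy the assembly lacks. The copies found lay on 12 sequences of the assembly, which can include other parts of chromosome 3 and scaffolds without an assigned place. Its signal may therefore include reads from other copies, and how the authors placed reads with several matches is not given in the sources used here. In the 11 others no stretch of 32 bases was found elsewhere. Across all 2961 pairs of far peaks that match 1 to 1 between libraries, the central 32 bases were found once for 97.1% and at least 10 times for 28 pairs.

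Others of the 12 lay nearest Gm11361, described above, Chd2, a chromatin remodeller gene (14.6 and 10.3), Rbx1, a ubiquitin ligase subunit gene (13.0 and 11.3), Trim33 (10.3 and 12.3) and Lrrc8d, which encodes a subunit of an anion channel (9.09 and 12.1). The 2 farthest from any coding start site lay between Cntnap5b and Cdh20 on chromosome 1, at 2140 and 2130 kb. The first had 9.02 in replicate 1 and 3.89 in replicate 2, and the second 0.456 and 0.502 in a fully repeat-masked stretch. The next lay 1824 kb from Pcdh20, with 0.403 and 0.483, also fully repeat-masked.

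As a class, far peaks had a median signal of 1.45 in replicate 1 and 1.19 in replicate 2. Medians were 1.86 and 1.40 for near intergenic peaks, 1.66 and 1.38 for intronic peaks and 3.56 and 3.07 for promoter peaks. Far peaks thus stood at 0.779 of the near intergenic median in replicate 1 and 0.851 in replicate 2 (mean 0.815 ± 0.0511), and at 0.407 and 0.389 of the promoter median. Among the stronger 50% of each main list the ratio to near intergenic peaks was 0.892 in replicate 1 and 1.03 in replicate 2, so the lower signal of far peaks did not hold there in replicate 2. The median width was 200 bp in both libraries, the same as for near intergenic peaks. Far peaks that were not shared were weaker, with medians of 0.676 in replicate 1 and 0.626 in replicate 2. A peak in the other library's longer list overlapped 65.0% and 53.9% of these.

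Footprints were found in nearly all far peaks. The centre of at least 1 footprint lay in 93.4% of far peaks in replicate 1 and 96.1% in replicate 2. The shares were 95.5% and 96.9% for near intergenic peaks and 88.1% and 90.1% for promoter peaks. They were 91.7% and 93.4% among all shared autosomal peaks, and 88.5% and 88.2% among all autosomal peaks, shared or not. The share of far peaks with a footprint was 82.1% and 90.5% in the weakest of 4 equal groups by signal, and 99.3% and 99.7% in the strongest. A far peak held 2.77 and 2.98 footprints on average. Footprints covered 19.3% of the bases of far peaks in replicate 1 and 20.0% in replicate 2.

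Consensus sequences were counted on both strands in windows of 300 bp at the peak centre and compared with windows 2 kb to each side of the far peaks that touched no peak of the longer lists. The median G and C content was 51.0% in far windows and 45.3% in flanking ones, and its part in the differences was not tested. ETS (ACAGGAAG) was found in 12.1% of far windows in replicate 1 (exact 95% interval 11.0% to 13.4%) and 12.2% in replicate 2 (11.1% to 13.4%). The flanking windows held it in 3.04% and 2.86%, near intergenic windows in 8.59% and 8.53%, and promoter windows in 3.31% and 3.32%. RUNX (TGTGGTT) was found in 13.0% and 13.5% of far windows (11.9% to 14.3% and 12.3% to 14.8%), against 6.65% and 6.67% of flanking, 10.8% and 10.8% of near intergenic and 3.55% and 3.63% of promoter windows. Over all autosomal peaks, shared or not, ETS was found in 6.58% and 7.28% of windows and RUNX in 8.07% and 8.28%. These intervals cover counting error only. Read backwards, the letters of ETS were found in 1.18% and 1.28% of far windows and those of RUNX in 3.91% and 4.17%.

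E-boxes were common in far windows. CAGCTG was found in 29.4% in replicate 1 and 29.3% in replicate 2, against 12.2% and 12.1% of flanking windows and 16.1% and 16.2% of promoter windows. CAGGTG was found in 38.1% and 38.02%, against 18.8% and 18.9% of flanking and 22.1% and 22.2% of promoter windows. Intronic peaks had shares close to these, 28.1% and 28.4% for CAGCTG and 37.9% and 37.99% for CAGGTG. PU.1 (GAGGAAGT, which shares letters with ETS) was found in 6.30% and 6.51% of far windows, against 1.80% and 1.78% of flanking windows. Over all autosomal peaks, shared or not, CAGCTG was found in 21.5% and 23.1%, CAGGTG in 29.6% and 30.5% and PU.1 in 3.86% and 4.46%.

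Some consensus sequences had exact 95% intervals that overlapped between far and flanking windows. These intervals cover counting error only, so whether they overlap is no test. TCF7 and LEF1 (CTTTGAT) had 5.84% and 5.82% in far windows and 5.44% and 5.31% in flanking ones. For GATA factors, searched as AGATAAG, the shares were 3.74% and 3.58% against 3.42% and 3.52%, for AP-1 (TGANTCA) 10.3% and 10.2% against 9.43% and 9.46%, and for NF-Y (CCAATCA) 3.35% and 3.42% against 3.95% and 3.77%. Ikaros (TGGGAA) was less common in far windows, 24.5% and 24.4% (exact 95% intervals 23.0% to 26.1% and 22.9% to 26.0%), than in flanking ones, 27.6% and 27.3% (26.4% to 28.8% and 26.2% to 28.5%). The far peaks of both libraries are nearly all the same regions, so the second library is no separate check. Read backwards, the letters of each of these consensus sequences were in fewer far windows than the consensus itself. The shares were 14.7% and 14.4% for Ikaros and 2.72% and 2.66% for TCF7 and LEF1. They were 1.97% and 2.07% for GATA, 6.47% and 6.54% for AP-1 and 2.63% and 2.56% for NF-Y. Letters read backwards were not counted in flanking windows. Over all autosomal peaks, shared or not, TCF7 and LEF1 was found in 3.58% and 3.78%, GATA in 2.53% and 2.53% and AP-1 in 6.74% and 7.05%. There NF-Y was found in 4.97% and 5.04%, Ikaros in 23.8% and 23.6%, and SP and KLF (GGGGCGG) in 21.1% and 21.03%. SP and KLF was found in 7.29% and 7.20% of far windows, 1.51% and 1.49% of flanking and 42.8% and 42.6% of promoter windows, but its letters read backwards were as common in far windows, 7.68% and 7.72%, so the share does not set this consensus apart from other G-rich sequence. The consensus sequences of CRE (TGACGTCA), YY1 (AAGATGGCG) and NRF1 were each in under 1% of far windows.

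**Figure D4:**
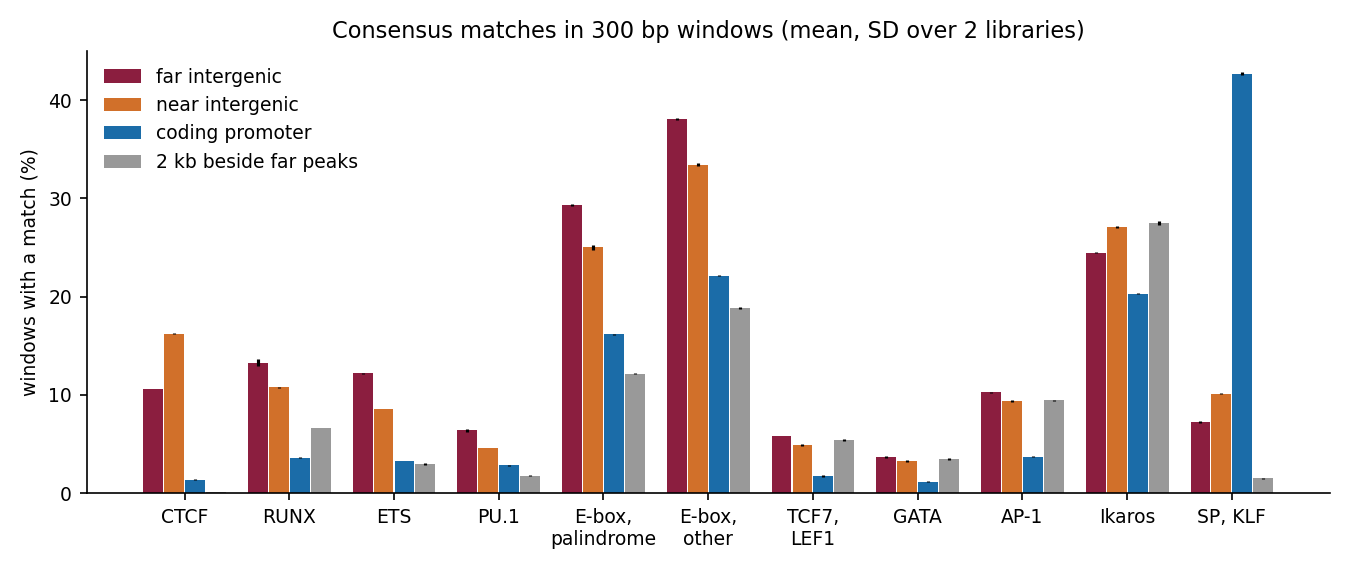
Share of 300 bp windows with at least 1 consensus match (y axis, %) for 11 consensus sequences (x axis) in far intergenic, near intergenic and promoter peaks and in windows 2 kb beside far peaks, as the mean of both libraries with the SD. The palindromic E-box is CAGCTG and the other CAGGTG. CTCF is found in 10.6% of far and 0.160% of flanking windows, while GATA is found in 3.66% and 3.47%.

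Within far peaks, footprints covered these letters unequally. CTCF matches had their middle in a footprint in 96.9% of cases in replicate 1 and 92.1% in replicate 2, and TCF7 and LEF1 matches in 35.1% and 38.6%. For RUNX it was 28.9% and 30.7%, against 14.3% and 14.8% for the letters read backwards. The letters of TCF7 and LEF1 read backwards were covered in 12.5% in both libraries, from 48 and 56 matches. E-box CAGGTG matches were covered in 26.6% and 26.5%, and their letters read backwards in 26.4% and 28.2%. E-box CAGCTG matches were covered in 23.2% and 26.1%, with only 11 and 12 matches to the letters read backwards. ETS matches were covered in 10.5% and 9.83% and GATA matches in 8.22% and 12.3%, below the 19.3% and 20.0% of far peak bases that lay in footprints. The letters of ETS read backwards were covered in 23.1% and 20.0%, from 26 and 25 matches. SP and KLF matches were covered in 55.9% and 60.1%, and their letters read backwards in 61.8% and 65.7%.

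The CTCF consensus was found in 322 far windows in each library, 10.6% in both (exact 95% intervals 9.50% to 11.7% and 9.51% to 11.7%). It was in 16.2% of near intergenic, 12.2% of intronic and 1.39% and 1.32% of promoter windows, and in 0.160% of flanking windows. Among all autosomal peaks, shared or not, it was in 8.89% in replicate 1 and 6.5% in replicate 2. Far peaks at CTCF matches are printed for 2 regions to show the match, in capitals, within otherwise unlike sequence; the first is the strongest such pair and the second the one with the lowest ratio of replicate 2 to replicate 1.
Nearest Chd2, chr7:73618401-73618700: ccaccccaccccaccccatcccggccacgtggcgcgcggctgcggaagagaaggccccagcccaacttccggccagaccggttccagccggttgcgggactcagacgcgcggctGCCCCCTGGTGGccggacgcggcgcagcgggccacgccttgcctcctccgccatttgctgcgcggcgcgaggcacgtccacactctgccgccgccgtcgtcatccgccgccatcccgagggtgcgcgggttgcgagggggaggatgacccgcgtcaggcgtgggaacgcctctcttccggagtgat
Nearest Etv6, chr6:133960801-133960980: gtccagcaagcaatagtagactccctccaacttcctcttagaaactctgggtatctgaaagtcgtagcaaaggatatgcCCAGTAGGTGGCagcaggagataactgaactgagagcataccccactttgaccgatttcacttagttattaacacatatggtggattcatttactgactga

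The libraries differed at CTCF matches. Far peaks with a match had a median signal of 1.62 in replicate 1 and 0.884 in replicate 2, and those without one had 1.41 and 1.25. Ratios of replicate 2 over replicate 1 were taken on the log2 scale over 1-to-1 pairs and centred on the median of all 36500 autosomal pairs, which was -0.18. The centred log2 ratio had a median of -0.63 over the 320 far pairs with a match, of which 96.3% lay below 0. Over the 2641 far pairs without a match the median was 0.10, and 41.2% lay below 0. The middle 80% of pairs ran from -1.06 to -0.16 with a match and from -0.71 to 0.57 without, so the 2 sets overlap. The region nearest Etv6, an ETS factor gene, had 2.33 in replicate 1 and 0.633 in replicate 2, a centred log2 ratio of -1.70.

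The same held outside far peaks. Median centred log2 ratios at CTCF matches were -0.62 for near intergenic, -0.59 for intronic and -0.34 for promoter pairs, against -0.05, 0.11 and 0.03 without a match. The share of far peaks with a match also moved with signal in opposite ways in the libraries, with 7.24% in the weakest of the 4 groups and 12.6% in the strongest in replicate 1, and 16.1% in the weakest and 5.15% in the strongest in replicate 2. Among far peaks by location that were called in 1 library only, 206 of 1148 in replicate 1 (17.9%) and 7 of 1011 in replicate 2 (0.692%) had a match. Centred log2 ratios of far pairs had medians of 0.25 with a RUNX match and 0.24 with an ETS match, against 0.00 for pairs without a RUNX match and 0.00 for pairs without an ETS match. With 2 libraries of 1 group, whether this difference is technical or lies in the tissue was not tested.

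**Figure D5:**
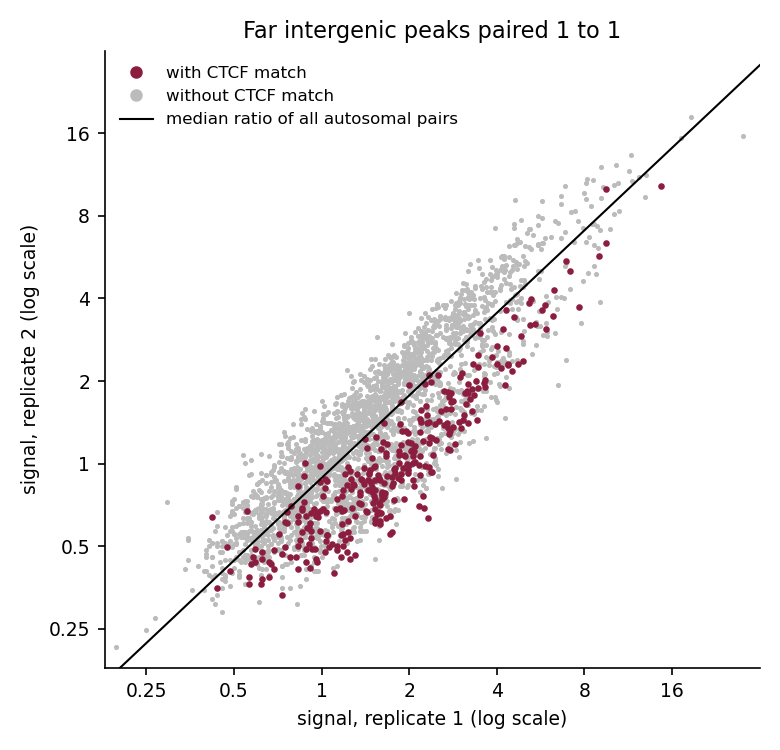
Signal of 2961 far intergenic peaks paired 1 to 1, in replicate 1 (x axis) and replicate 2 (y axis), both on log scales in the authors' deposited units; dark points have a CTCF consensus match and the line is the median ratio of all autosomal pairs. Of pairs with a match 96.3% lie below the line, against 41.2% of those without.

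Apart from this, far pairs agreed in rank. Across the 2961 pairs the signals of the libraries had a Spearman correlation of 0.831, a description across peaks of the same 2 libraries. The SD of the centred log2 ratio was 0.51, against 0.51 for near intergenic, 0.50 for intronic and 0.32 for promoter pairs, and 95.4% of far pairs lay within 2-fold after centring. The 5 highest centred log2 ratios were 1.47 nearest Psmg1, 1.18 nearest Siah1a, 1.16 nearest Irf2bpl, 1.08 nearest Cebpb and 1.06 nearest Zfp703. The peak nearest Irf2bpl was the strongest of these, with 4.64 in replicate 1 and 9.16 in replicate 2, and none of the 5 had a CTCF match. After Etv6 the lowest were -1.59 nearest Unc5cl, -1.56 nearest Ddx18, -1.54 nearest March5 and -1.52 nearest Cd2ap, of which only that nearest Cd2ap had a match. The peak nearest Ddx18, 789.2 kb from its start site, had 6.47 in replicate 1 and 1.94 in replicate 2.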

How the data were processed

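DNase-seq of 2 libraries of 1 group was used. Per the file notes and the values, the authors deposited for each library 2 peak lists with a signal value per peak, footprint positions, and base runs under a false discovery rate. The aligner, the caller and the scale of the deposited signal were not given in the sources used here. Each library has its own lists, made from its own alignments and not pooled, per the file notes. The authors deposited q-values in the base runs, of which only the lowest under each peak was read, and no result rests on it. Signals are whole multiples of 1 step, within 0.00565 of a step in replicate 1 and 0.0475 in replicate 2, and the median far peak holds 162 and 183 steps. If a step is 1 cut, counting error is 7.86% and 7.39%. Depth is otherwise unknown.

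The main list is the one with fewer rows, 50648 and 49872 peaks with the sex chromosomes, of which autosomes were kept. Genes are GENCODE M21 basic on GRCm38. A desert is the interval between neighbouring protein-coding genes, and far territory is the part of it that meets the distances. A gene is open if a peak lay within 1 kb of a start site in both libraries. Consensus sequences were sought on both strands. Pairs are peaks that overlap 1 to 1, which leaves out 85 far peaks of replicate 1 and 82 of replicate 2. Some autosomal peaks overlapped an earlier peak of the same main list, 754 in replicate 1 and 1027 in replicate 2. Each was counted as its own peak. Intervals are Clopper-Pearson.

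Members, lists and motifs were chosen with earlier results of these data known. Named genes are those flanking the 12 deserts with most far peaks and the 5 densest, those nearest the 12 strongest, the 3 farthest and the 5 highest and 5 lowest ratios between libraries, and T lineage genes with a far peak in an adjoining desert. Some results that this rule names are not reported here. Empty deserts, the other listed genes and noncoding hosts were named after their values were seen. Python 3.11.15, numpy 2.4.6, pandas 2.3.3, scipy 1.17.1 and bedtools 2.31.1 were used, and the counting steps were tested on simulated data. Alternatives were other distances, overlaps, peak lists, signal limits, joining of peaks, antigen receptor segments as genes, another CTCF consensus and each library alone.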

Additional observations from a re-analysis of the deposited data

How the results depend on the processing

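Numbers are means of both libraries, and because the overlap rule fixes the members in both, their SD is small and slight shifts exceed it. At limits of over 25 kb and over 100 kb there were 4915.5 and 1505.5 far peaks, in place of 3044.5. The longer lists gave 5415 and the stronger 50% of the main lists 964. With those 4 settings in the same order, their share of autosomal peaks was 10.1%, 3.08%, 7.13% and 3.93%, and their density 4.61, 2.06, 5.94 and 1.06 per Mb. The share with a CTCF match was 12.6%, 9.10%, 9.45% and 7.57%, the share with an open nearest gene 72.5%, 73.5%, 77.1% and 68.3%, and the share in the 10 leading deserts 4.62%, 12.6%, 6.18% and 11.1%. The signal ratio to near intergenic peaks was 0.718 with the longer lists and 0.961 with the stronger 50%, and the share with a footprint 87.0% and 99.0%.

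A reciprocal overlap of 50% gave a share of 5.45%, 2.93 per Mb, CTCF in 11.2%, an open nearest gene for 74.5% and 6.94% in the 10 leading deserts. Joining peaks within 500 bp gave 7.42%, 3.005 per Mb, footprints in 96.8%, CTCF in 10.9%, an open nearest gene for 72.0% and 6.85% in the 10 deserts. Antigen receptor segments as genes gave 6.15%, 3.32 per Mb, CTCF in 10.5% and 7.10% in the 10 deserts, and whole peaks outside gave 6.15%, 3.30 per Mb and CTCF in 10.6%. A looser CTCF consensus was found in 16.1%, and the consensus within the peak as listed in 10.4%. Of 2 settings added after seeing the data, leaving out far peaks at start sites of RefSeq or the comprehensive set gave 5.82%, 3.13 per Mb, CTCF in 10.8%, an open nearest gene for 73.9% and 7.11%. Leaving out those over 50% repeat-masked gave 5.97%, 3.20 per Mb, CTCF in 10.9%, an open nearest gene for 74.2% and 7.14%.

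With 1 library alone and so no overlap rule, far peaks numbered 4054 to 4194, a share of 8.34% to 8.52% and 4.45 to 4.60 per Mb. The signal ratio was 0.751 to 0.829, footprints were in 89.8% to 91.2%, CTCF in 8.12% to 12.6%, the nearest gene was open for 73.3% to 75.2%, and 6.20% to 8.07% lay in the 10 leading deserts. The cause of these shifts was not tested, beyond the fewer or more peaks each setting keeps. No paired analysis was possible because both libraries belong to 1 group.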
